A study of Homo sapiens with 18 samples.

Results

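The IL6 family genes described here are 4 ligands (IL6, IL11, LIF and CLCF1), 4 receptor chains (IL6R, IL6ST, LIFR and OSMR), the transcription factor STAT3 and its inhibitor SOCS3. These 10 genes were selected by symbol, each symbol was mapped to the Entrez identifier of the expression table, and all 10 were found among its 18475 genes. RNA-seq had been performed on 3 human lung cell lines to compare how epithelial and cancer cells respond to ionizing radiation. BEAS-2B is a bronchial epithelial line immortalized with a hybrid of adenovirus and SV40, H446 is a small cell lung cancer line, and A549 is a lung adenocarcinoma line, a non-small cell lung cancer. The labels name no engineered allele and no other agent for any line. In each line, 3 libraries came from unirradiated control cells, whose labels give no dose or time, and 3 from cells collected 24 h after 10 Gy of X-rays, so that 18 libraries were compared. Nothing in the labels says that replicates were separate cultures, so the p-values measure only the spread between these libraries, which may be technical. Levels are given as FPKM, the fragments of a gene per kilobase of transcript, scaled to the mapped reads of the library, and can therefore be compared between genes per length.

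IL6 family cytokines signal through receptor complexes that share the chain IL6ST, also called gp130. IL6 first binds IL6R and IL11 its own receptor chain, whereas LIF signals through a complex of LIFR with IL6ST, CLCF1 acts through a complex that also holds LIFR and IL6ST, and OSMR is the chain for oncostatin M. JAK kinases bound to the chains then phosphorylate STAT3, which enters the nucleus and induces, among other genes, SOCS3, a feedback inhibitor that binds IL6ST and the kinases. In the lung, IL6 is known as a cytokine of inflammation and of injury after irradiation, and IL11 as a cytokine that acts on fibroblasts.

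Markers were compared with the labels before the family genes. Of the 7 epithelial markers, KRT8 and KRT18 were high in all lines, and KRT8 had a mean of 555 FPKM in BEAS-2B, 1320.04 FPKM in H446 and 549.5 FPKM in A549 cells. The others differed: KRT5 stayed at or below 0.03 FPKM in all 18 libraries, CDH1 at or below 0.74 FPKM in H446 and 0.54 FPKM in BEAS-2B cells, EPCAM at or below 0.60 FPKM and KRT17 at or below 0.18 FPKM in A549 cells, and KRT19 at or below 2.47 FPKM in H446 cells. In H446 cells the neuroendocrine markers CHGA and SYP each had a mean below 1 FPKM. UCHL1 had a mean of 19.2 FPKM there, against 269.8 FPKM in BEAS-2B and 531 FPKM in A549 cells. ENO2 had a control mean of 20.7 FPKM in H446, 111 FPKM in BEAS-2B and 23.1 FPKM in A549 cells. In A549 cells the surfactant genes SFTPC and SFTPB stayed at or below 0.22 FPKM in every library, while the alveolar marker ABCA3 had a mean of 9.53 FPKM. The leukocyte gene PTPRC stayed at or below 0.09 FPKM in all 18 libraries. CD68, also on the leukocyte list, had a mean of 10.4 FPKM in BEAS-2B, 8.98 FPKM in H446 and 29.3 FPKM in A549 cells. Among the endothelial genes VWF and CDH5 stayed at or below 0.05 FPKM, while PECAM1 was between 3.40 and 4.03 FPKM in H446 cells. The most abundant fibroblast marker was COL1A1 in BEAS-2B (mean 8.77 FPKM) and A549 cells (8.84 FPKM), and LUM in H446 cells (18.1 FPKM). The labelled identities were kept as names of the lines.

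The library labelled BEAS-2B 10 Gy replicate 2 stood apart from the other irradiated BEAS-2B libraries. Over 8 p53 target genes used as a check of irradiation, the median difference from the control mean on the log2(FPKM + 1) scale was 1.53 in replicate 1, 0.12 in replicate 2 and 2.18 in replicate 3. CDKN1A, a p53-induced inhibitor of the cell cycle, was at 310 FPKM in replicate 1, 102 FPKM in replicate 2 and 488 FPKM in replicate 3, against 79.9, 86.4 and 86.1 FPKM in the controls. In irradiated A549 libraries the same median was between 1.40 and 1.52, and in irradiated H446 libraries between -0.10 and 0.09. The median thus did not mark irradiation in H446 cells, where 14.8% of all genes tested were higher and 23.6% lower. Whether BEAS-2B 10 Gy replicate 2 received the labelled dose was not tested. The members called or changed in call in BEAS-2B cells are given with and without it. So are the members called, with all libraries, in the comparison of the BEAS-2B response with that of another line.

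**Figure D1:**
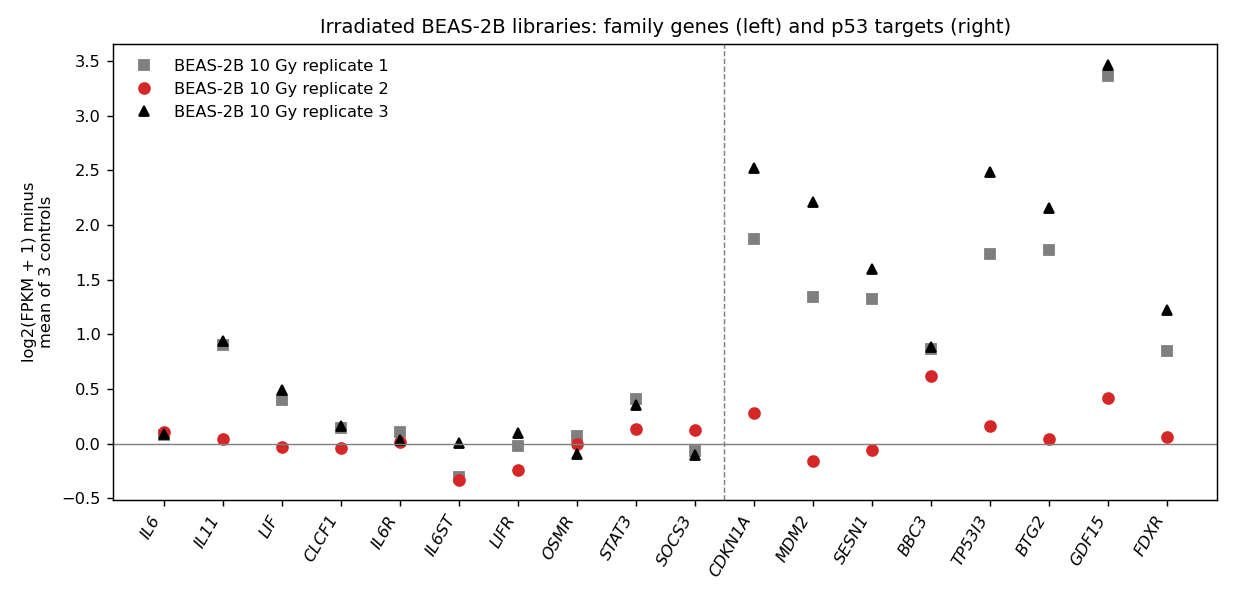
Difference of each irradiated BEAS-2B library from the mean of the 3 control libraries on the log2(FPKM + 1) scale, for the 10 family genes (left of the dashed line) and 8 p53 target genes (right). Replicate 2 (circles) lies near 0 for IL11, LIF and most p53 targets, where replicates 1 (squares) and 3 (triangles) lie higher, with GDF15 at 3.36, 0.42 and 3.47 in replicates 1, 2 and 3.

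Upstream sequences are shown for 4 members whose levels changed in A549 cells, so that the letters before their starts can be read beside the values. RefSeq's promoter table (GRCh38.p14) held 8 of the 10 members; LIF and CLCF1 were not in it. From the 250 bases before each start, the bases up to the nearest exon of GENCODE 29 are printed from 5′ to 3′ on the strand of the gene. The IL6 window is chr7:22726950-22727146 on the plus strand, and the windows of IL11 (chr19:55370464-55370713), SOCS3 (chr17:78360926-78361175) and STAT3 (chr17:42388569-42388692) are on the minus strand. Capitals mark matches, on either strand, to 5 motifs that were searched: TTCNNNGAA (STAT), TGANTCA (AP-1), TGACGTCA (CRE), GGANTTTCC (NF-kB) and TTGCNNAA (C/EBP).
IL6: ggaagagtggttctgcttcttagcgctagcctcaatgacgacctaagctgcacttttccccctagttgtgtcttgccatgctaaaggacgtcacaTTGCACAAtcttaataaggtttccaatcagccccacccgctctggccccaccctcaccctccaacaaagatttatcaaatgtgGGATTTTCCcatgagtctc
IL11: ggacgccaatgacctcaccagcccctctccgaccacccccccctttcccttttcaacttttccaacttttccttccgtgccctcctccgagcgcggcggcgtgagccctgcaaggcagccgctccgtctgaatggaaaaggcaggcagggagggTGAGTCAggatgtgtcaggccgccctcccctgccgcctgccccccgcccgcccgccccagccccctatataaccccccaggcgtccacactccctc
SOCS3: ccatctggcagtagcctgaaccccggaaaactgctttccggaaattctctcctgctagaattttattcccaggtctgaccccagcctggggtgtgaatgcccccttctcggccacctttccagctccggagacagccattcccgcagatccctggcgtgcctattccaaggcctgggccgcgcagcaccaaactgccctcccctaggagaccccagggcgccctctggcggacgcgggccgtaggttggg
STAT3: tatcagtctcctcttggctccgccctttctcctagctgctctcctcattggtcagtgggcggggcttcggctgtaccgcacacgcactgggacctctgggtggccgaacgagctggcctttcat

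The IL6 window held 1 match to the NF-kB letters, at 72 to 64 bases before the start, and 1 to the C/EBP letters, at 155 to 148 bases before it. The same letters occur in 1.105% and 7.515% of all 34943 windows of that length in the table. The IL11 window held 1 match to the AP-1 letters, at 96 to 90 bases before the start, which 6.59% of all windows of its length also hold. No match to the 5 motifs was found in the SOCS3 and STAT3 windows, which says only that these letters are not there. Each window lies before the outermost start of its gene in that promoter table. Windows before any other start were not searched.

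The levels of the ligands in unirradiated cells differed strongly between the lines. IL6 was at 156, 159 and 149.9 FPKM in the control libraries of A549 cells, at 12.7, 15.6 and 14.2 FPKM in those of BEAS-2B cells and at 10.0, 9.86 and 8.87 FPKM in those of H446 cells. The A549 libraries lay far above all others, and in A549 cells IL6 ranked 394 of 18475 genes by its control mean. On the log2(FPKM + 1) scale, control A549 exceeded control BEAS-2B cells by 3.37 (95% interval 3.19 to 3.55, adjusted p = 2.46e-17, limma) and control H446 cells by 3.88 (3.70 to 4.06, adjusted p = 2.53e-18). H446 cells were below BEAS-2B cells, with a difference of -0.52 (-0.70 to -0.34, adjusted p = 1.89e-05).

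IL11 was at 118, 125 and 124 FPKM in the A549 controls, at 2.26, 2.36 and 2.12 FPKM in the BEAS-2B controls and at 1.44, 1.61 and 1.58 FPKM in the H446 controls. LIF was at 54.9, 56.4 and 53 FPKM in the A549 controls, at 7.30, 7.89 and 8.28 FPKM in the BEAS-2B controls and at 1.35, 1.46 and 1.21 FPKM in the H446 controls. Both followed the order A549, BEAS-2B, H446 with no overlap between the libraries of different lines. Control A549 exceeded control BEAS-2B cells by 5.25 for IL11 (SE 0.154, adjusted p = 2.18e-16) and by 2.66 for LIF (SE 0.111, adjusted p = 4.81e-14) on the log2 scale. The lower IL11 level of H446 against BEAS-2B cells (-0.35, SE 0.154, adjusted p = 0.0424) lost its call with no filter on low values (adjusted p = 0.0737), after quantile normalization (0.178) and after the GC trend was removed (0.125). It was also lost without H446 control replicate 1 (0.102), 2 (0.0633) or 3 (0.0691), BEAS-2B control replicate 1 (0.0807), 2 (0.0957) or 3 (0.0571), and A549 control replicate 2 (0.0505) or 3 (0.0504). CLCF1 was at 9.82 ± 0.208 FPKM in A549 (mean ± SD, n = 3), 9.27 ± 0.765 FPKM in H446 and 5.52 ± 0.481 FPKM in BEAS-2B controls. The A549 and H446 levels of CLCF1 did not differ beyond their spread (difference 0.08, 95% interval -0.09 to 0.24, adjusted p = 0.364), and both were above BEAS-2B cells (0.73 with adjusted p = 5.74e-08, and 0.66 with adjusted p = 2.95e-07).

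Among the receptor chains, OSMR was the most abundant of the 10 genes in control BEAS-2B (105 ± 8.87 FPKM) and H446 cells (109 ± 1.25 FPKM), whose levels did not differ beyond the spread (adjusted p = 0.288), and was at 91.9 ± 1.79 FPKM in A549 cells, below BEAS-2B cells by a difference of -0.19 (adjusted p = 0.00407). After quantile normalization the OSMR difference was -0.04 (adjusted p = 0.540), and that between A549 and H446 cells, -0.25 as deposited (adjusted p = 0.000340), was -0.11 (adjusted p = 0.102). IL6ST was at 58.3 ± 3.58 FPKM in A549, 54.1 ± 1.07 FPKM in H446 and 50.6 ± 3.77 FPKM in BEAS-2B controls, and neighbours in this order did not differ beyond their spread (adjusted p = 0.221 and 0.244). A549 exceeded BEAS-2B cells by 0.20 (adjusted p = 0.0215), a call lost without A549 control replicate 1 (adjusted p = 0.0731) or 3 (0.0759) and without BEAS-2B control replicate 2 (0.116). The IL6ST level of H446 cells exceeded that of BEAS-2B cells after the GC trend was removed (adjusted p = 0.00906), and that of A549 cells exceeded H446 cells after quantile normalization (adjusted p = 0.0178). LIFR had the reverse of the order of IL6, IL11 and LIF, with 14.3 ± 0.310 FPKM in H446, 10.1 ± 0.563 FPKM in BEAS-2B and 6.12 ± 0.549 FPKM in A549 controls, and each neighbouring pair differed (adjusted p = 3.44e-05 and 7.00e-07). IL6R, the chain specific to IL6, was the lowest of the 10 genes in all 3 lines, with 2.14 ± 0.154 FPKM in A549, 1.27 ± 0.104 FPKM in BEAS-2B and 1.07 ± 0.0954 FPKM in H446 controls; the BEAS-2B and H446 levels did not differ beyond their spread (adjusted p = 0.0788), but did without BEAS-2B control replicate 1 (adjusted p = 0.0454).

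STAT3 and SOCS3 followed the order A549, BEAS-2B, H446. STAT3 was at 57.7 ± 0.487, 41.8 ± 2.56 and 27.2 ± 0.997 FPKM, and SOCS3 at 48.4 ± 2.13, 17.3 ± 1.46 and 7.47 ± 0.320 FPKM in the controls of these lines. Each neighbouring pair differed, with a log2 difference for SOCS3 of 1.43 between A549 and BEAS-2B cells (adjusted p = 2.80e-12) and of -1.11 between H446 and BEAS-2B cells (adjusted p = 1.54e-10). In all, 10 of 10 members differed between control A549 and BEAS-2B cells, 7 of 10 between H446 and BEAS-2B cells and 8 of 10 between A549 and H446 cells. Of all 13071 genes tested in these comparisons, 83.8%, 81.1% and 83.2% differed, so the shares of members are near the background.

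**Figure D2:**
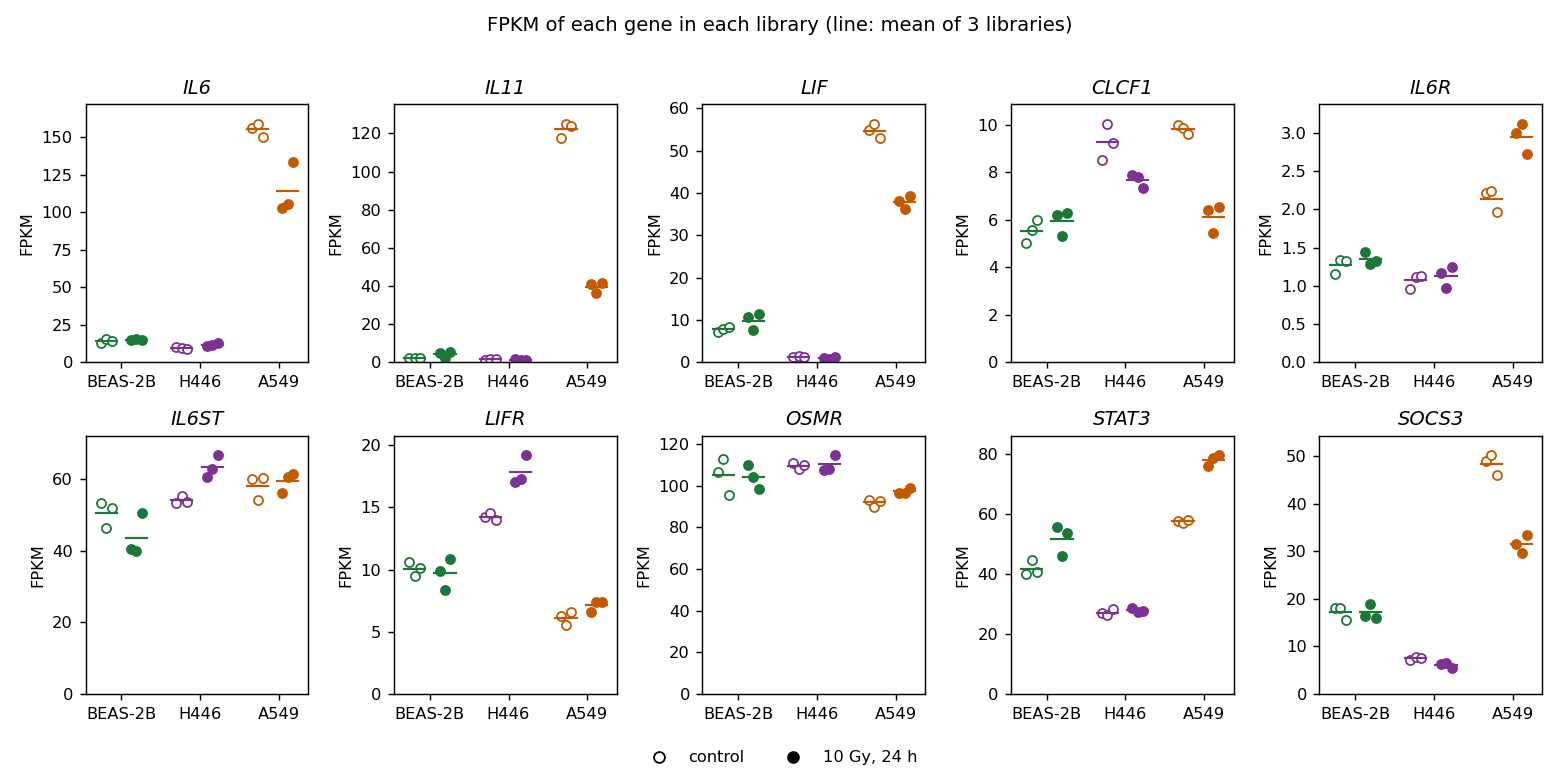
FPKM of each of the 10 genes in each of the 18 libraries (linear axis from 0), in control cells (open circles) and at 24 h after 10 Gy (filled circles) of BEAS-2B, H446 and A549 cells, with a line at the mean of 3 libraries. The A549 controls of IL6, IL11, LIF and SOCS3 lie above all libraries of the other lines, and all irradiated A549 libraries of these genes lie below the A549 controls.

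Irradiation of A549 cells lowered all 4 ligands. IL6 was at 103, 105 and 133.5 FPKM in the irradiated libraries, all below the lowest control (149.9 FPKM), with replicate 3 closest to the controls. Its log2 fold change on the log2(FPKM + 1) scale was -0.45 (95% interval -0.62 to -0.28, adjusted p = 0.000448), and the ratio of the means was 0.734. IL11 showed the largest change of the 10 genes in any line, from the control values given above to 41.1, 36.2 and 41.5 FPKM. All 3 irradiated libraries were far below the controls (log2 fold change -1.60, -1.72 to -1.49, adjusted p = 5.75e-10), and the ratio of the means was 0.324. LIF was at 38.1, 36.3 and 39.25 FPKM after irradiation, again below every control (log2 fold change -0.52, -0.61 to -0.43, adjusted p = 1.31e-06). CLCF1 went from 10.0, 9.86 and 9.59 FPKM in the controls to 6.41, 5.44 and 6.54 FPKM, with no overlap (log2 fold change -0.60, -0.75 to -0.46, adjusted p = 1.75e-05). Of all 11993 genes tested in A549 cells, 26.4% were lower and 25.3% higher after irradiation. These are bulk libraries, in which fewer cells that express a gene and less RNA per cell cannot be told apart.

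Of the receptor chains, IL6R and LIFR rose in A549 cells. IL6R was at 2.21, 2.24 and 1.96 FPKM in the controls and at 3.0, 3.12 and 2.72 FPKM after irradiation, with all irradiated libraries above the controls (log2 fold change 0.33, 95% interval 0.16 to 0.50, adjusted p = 0.00336). LIFR was at 6.29, 5.51 and 6.57 FPKM in the controls and at 6.58, 7.39 and 7.42 FPKM after irradiation, so that the highest control nearly reached the lowest irradiated library (log2 fold change 0.19, 0.03 to 0.35, adjusted p = 0.0426). The call for LIFR was lost with no filter on low values (adjusted p = 0.0975), after quantile normalization (0.0526), with all 18 libraries in 1 fit (0.0670) and without 10 Gy replicate 2 (0.119) or 3 (0.121) or control replicate 1 (0.0633) or 2 (0.164). IL6ST and OSMR did not pass the test, with log2 fold changes of 0.03 (-0.08 to 0.14) and 0.08 (0.00331 to 0.16); after quantile normalization OSMR passed it (adjusted p = 0.0318).

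STAT3 and its inhibitor moved in opposite directions in A549 cells. STAT3 was at 57.9, 57.2 and 58.1 FPKM in the controls and at 76.1, 78.7 and 79.8 FPKM after irradiation, with a gap between the groups that was wide against the spread within them (log2 fold change 0.43, 95% interval 0.35 to 0.51, adjusted p = 1.53e-06). SOCS3 was at 48.9, 50.2 and 46.1 FPKM in the controls and at 31.6, 29.55 and 33.3 FPKM after irradiation, all below the controls (log2 fold change -0.61, -0.72 to -0.49, adjusted p = 1.57e-06). In all, 5 of 10 members were lower and 3 of 10 higher in irradiated A549 cells, where 26.4% of all genes tested were lower and 25.3% higher.

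Of the ligands in H446 cells, IL6 rose and CLCF1 fell. IL6 was at 10.0, 9.86 and 8.87 FPKM in the controls and at 11.25, 11.6 and 12.9 FPKM after irradiation, so that every irradiated library was above every control (log2 fold change 0.28, 95% interval 0.14 to 0.43, adjusted p = 0.00643). CLCF1 fell from 8.52, 10.05 and 9.24 FPKM to 7.88, 7.78 and 7.33 FPKM (log2 fold change -0.24, -0.39 to -0.10, adjusted p = 0.0132), a call lost after the GC trend was removed (-0.12, adjusted p = 0.158) and without control replicate 2 (-0.19, adjusted p = 0.0612). IL11 and LIF, both near 1 FPKM, did not pass the test. IL11 had a log2 fold change of -0.04 (-0.23 to 0.16), and LIF, which was at 1.10, 0.71 and 1.27 FPKM after irradiation, had -0.22 (-0.46 to 0.03).

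IL6ST and LIFR rose in H446 cells. IL6ST was at 53.3, 55.35 and 53.7 FPKM in the controls and at 60.6, 63.0 and 66.8 FPKM after irradiation (log2 fold change 0.22, 95% interval 0.13 to 0.32, adjusted p = 0.00229). LIFR was at 14.2, 14.6 and 14.0 FPKM in the controls and at 17.1, 17.3 and 19.2 FPKM after irradiation (log2 fold change 0.30, 0.19 to 0.42, adjusted p = 0.00153). For both genes the irradiated libraries lay above all controls. IL6R, OSMR and STAT3 did not pass the test, and STAT3 was at 27.0, 26.25 and 28.2 FPKM in the controls and 28.5, 27.5 and 27.8 FPKM after irradiation (log2 fold change 0.04, -0.05 to 0.13). SOCS3 fell from 7.14, 7.78 and 7.48 FPKM to 6.36, 6.60 and 5.35 FPKM (log2 fold change -0.26, -0.42 to -0.09, adjusted p = 0.0196). The SOCS3 call was lost with no filter on low values (adjusted p = 0.0602), after quantile normalization (0.0576), after the GC trend was removed (-0.10, adjusted p = 0.297) and without control replicate 2 (0.0720) or 10 Gy replicate 3 (0.0614).

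In all, 3 of 10 members were higher and 2 of 10 lower in irradiated H446 cells, where 14.8% of the 11479 genes tested were higher and 23.6% lower. After the GC trend was removed, or without control replicate 2, 3 members passed the threshold in place of 5. The split of all genes depended on the scaling: 1698 genes were higher and 2709 lower as deposited, 2171 and 2188 after quantile normalization, and 1814 and 1703 after the GC trend was removed.

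In BEAS-2B cells none of the 10 members passed the threshold in the fit of the 6 libraries by treatment alone, and neither did any other gene. Of 11734 genes tested with limma, 0 (0%) had an adjusted p under 0.05, while 1446 had an unadjusted p under 0.05, and the smallest adjusted p was 0.241. IL11 was at 2.26, 2.36 and 2.12 FPKM in the controls and at 5.05, 2.34 and 5.22 FPKM after irradiation, so that replicates 1 and 3 were above the controls and replicate 2 was among them. Its log2 fold change was 0.63 (95% interval 0.18 to 1.07, adjusted p = 0.277), and without 10 Gy replicate 2 it was 0.92 (adjusted p = 0.000543). LIF showed the same arrangement, with 10.6, 7.62 and 11.4 FPKM after irradiation against 7.30, 7.89 and 8.28 FPKM in the controls (log2 fold change 0.29, 0.0035 to 0.57, adjusted p = 0.401; without replicate 2, 0.45 with adjusted p = 0.0348). IL6 was at 15.0, 15.3 and 15.1 FPKM after irradiation, within the control range of 12.7 to 15.6 FPKM (log2 fold change 0.09, -0.10 to 0.28), and CLCF1 was at 6.20, 5.32 and 6.29 FPKM against 5.02, 5.56 and 5.98 FPKM (0.09, -0.12 to 0.30).

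STAT3 was at 39.9, 44.7 and 40.85 FPKM in the BEAS-2B controls and at 55.7, 45.9 and 53.7 FPKM after irradiation, with replicate 2 just above the highest control. Its log2 fold change was 0.30 (95% interval 0.10 to 0.50, adjusted p = 0.260), and 0.38 without 10 Gy replicate 2 (adjusted p = 0.0418). SOCS3, at 16.4, 18.9 and 16.0 FPKM after irradiation, overlapped its controls at 18.1, 18.2 and 15.6 FPKM (log2 fold change -0.01, -0.22 to 0.19). Among the receptor chains, IL6ST was at 40.6, 40.0 and 50.6 FPKM after irradiation against 53.4, 46.3 and 52.05 FPKM in the controls (log2 fold change -0.21, -0.43 to 0.01, adjusted p = 0.421), and here replicate 3, not replicate 2, was the library near the controls. The log2 fold changes of IL6R, LIFR and OSMR lay between -0.05 and 0.05. Without 10 Gy replicate 2, the log2 fold changes were 0.08 for IL6, 0.15 for CLCF1, -0.09 for SOCS3 and -0.15 for IL6ST, none past the threshold. In that fit 224 of 11680 genes were higher (1.92%) and 9 lower, and 3 of 10 members, IL11, LIF and STAT3, were among the higher. With all 18 libraries in 1 fit, 515 of 13071 genes were higher (3.94%) and 327 lower, and IL11 (adjusted p = 0.0232) and STAT3 (adjusted p = 0.0104) were among the higher.

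**Figure D3:**
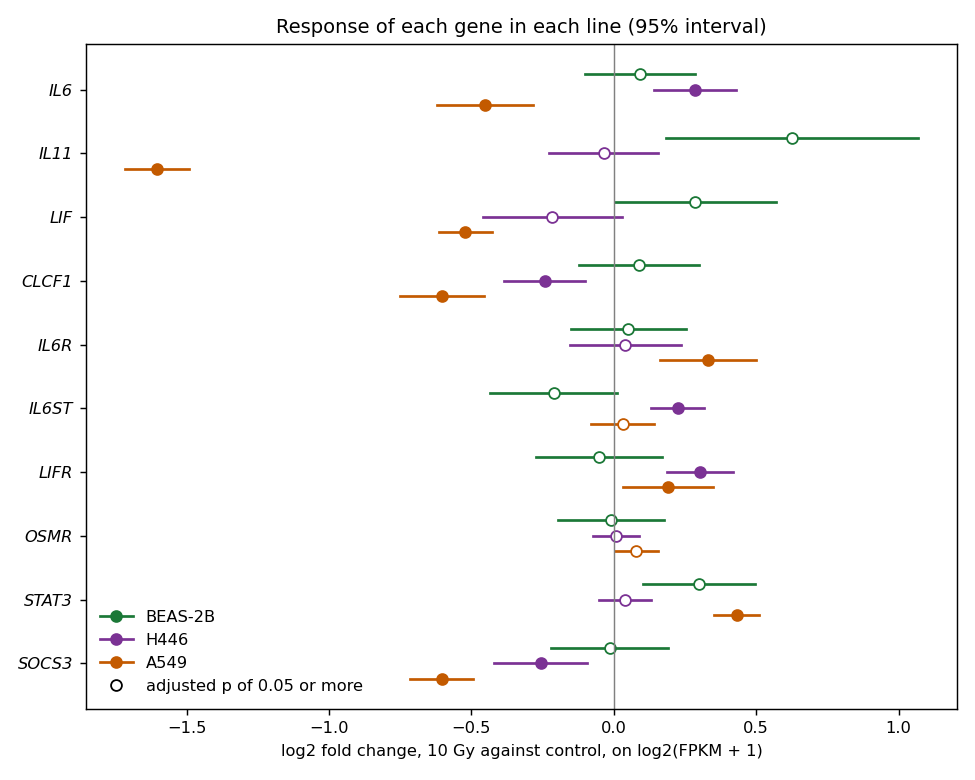
Log2 fold change of 10 Gy against control for each of the 10 genes in BEAS-2B, H446 and A549 cells on the log2(FPKM + 1) scale, with its 95% interval; filled circles have an adjusted p under 0.05 and open circles do not. In A549 cells IL11 lies at -1.60 and the other ligands and SOCS3 between -0.61 and -0.45, while STAT3 lies at 0.43.

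The difference between the responses of the lines was tested in 1 fit of all 18 libraries. The 3 pairwise differences share their libraries and are not independent of each other. For the ligands, the response of A549 cells was below that of BEAS-2B cells in all 4 genes: BEAS-2B minus A549 was 2.23 for IL11 (95% interval 1.77 to 2.69, adjusted p = 8.80e-07), 0.81 for LIF (0.48 to 1.14, adjusted p = 0.000919), 0.69 for CLCF1 (0.46 to 0.93, adjusted p = 0.000164) and 0.54 for IL6 (0.29 to 0.80, adjusted p = 0.00254). SOCS3 differed in the same direction, by 0.59 (0.36 to 0.82, adjusted p = 0.000670), and IL6R in the other, by -0.28 (-0.48 to -0.08, adjusted p = 0.0333). For STAT3, which had a higher mean after irradiation in both lines, the difference was -0.13 with an interval from -0.31 to 0.05 (adjusted p = 0.256). In all, 6 of 10 members differed in response between BEAS-2B and A549 cells, against 30.6% of the 13071 genes tested. Without BEAS-2B 10 Gy replicate 2, the differences were 2.52 for IL11 (adjusted p = 1.26e-11), 0.97 for LIF (1.76e-05), 0.76 for CLCF1 (5.62e-05), 0.54 for IL6 (0.00460) and 0.52 for SOCS3 (0.00145). The call for IL6R was lost with a pseudocount of 0.1 (adjusted p = 0.105), after quantile normalization (0.0535), and without BEAS-2B 10 Gy replicate 2 (0.0628), BEAS-2B control replicate 2 (0.0623) or 3 (0.0669), A549 10 Gy replicate 1 (0.0635) or 2 (0.0813) or A549 control replicate 3 (0.0856). Without BEAS-2B 10 Gy replicate 3 or control replicate 2, IL6ST also passed the threshold (adjusted p = 0.00445 and 0.0388), as did LIFR without that irradiated library (adjusted p = 0.0281).

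Between the cancer lines, A549 minus H446 was -1.57 for IL11 (95% interval -2.02 to -1.11, adjusted p = 3.30e-05) and -0.74 for IL6 (-0.99 to -0.48, adjusted p = 0.000163), the gene that fell in A549 and rose in H446 cells. CLCF1 and SOCS3, lower after irradiation in both lines, fell further in A549 cells, by -0.36 (adjusted p = 0.0167) and -0.35 (adjusted p = 0.0206), and STAT3 differed by 0.39 (0.21 to 0.57, adjusted p = 0.00162) and IL6R by 0.29 (adjusted p = 0.0252). In all, 6 of 10 members differed, against 34.6% of all genes tested. Without A549 10 Gy replicate 2, 3 members passed the threshold, since the calls for CLCF1 (adjusted p = 0.0513), SOCS3 (0.0566) and IL6R (0.0613) were lost. The calls for CLCF1 (0.0521) and SOCS3 (0.0519) were also lost without H446 control replicate 1, and that for SOCS3 without H446 10 Gy replicate 2 (0.0593). IL6R lost its call with a pseudocount of 0.1 (adjusted p = 0.0841), after quantile normalization (0.113), after the GC trend was removed (0.0531) and without A549 10 Gy replicate 1 (0.0516), A549 control replicate 3 (0.0688), H446 10 Gy replicate 2 (0.0747) or H446 control replicate 2 (0.0566) or 3 (0.0586). LIF passed the threshold without H446 10 Gy replicate 2 (adjusted p = 0.0390) or BEAS-2B 10 Gy replicate 2 (0.0467).

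Between BEAS-2B and H446 cells, the response differed in 6 of 10 members, against 22.7% of all genes tested. BEAS-2B minus H446 was positive for IL11 (0.66, adjusted p = 0.0358), LIF (0.50, adjusted p = 0.0290), CLCF1 (0.33, adjusted p = 0.0375) and STAT3 (0.26, adjusted p = 0.0345), and negative for IL6ST (-0.44, adjusted p = 0.00917) and LIFR (-0.36, adjusted p = 0.0329). Most of these calls lay near the threshold: 2 members passed it with no filter on low values, 1 after the GC trend was removed, 1 without BEAS-2B control replicate 1, 3 without BEAS-2B control replicate 3, and 2 without BEAS-2B 10 Gy replicate 1 or any 1 of H446 10 Gy replicates 2 and 3 and H446 control replicates 1, 2 and 3. After quantile normalization, and without BEAS-2B 10 Gy replicate 3, 4 members were past the threshold. IL6ST was past the threshold in each of these cases. Without BEAS-2B 10 Gy replicate 2, IL11 (0.95, adjusted p = 7.18e-06), LIF (0.66, adjusted p = 0.00147), STAT3 (0.34, adjusted p = 0.00229), CLCF1 (0.40, adjusted p = 0.0164) and IL6ST (-0.38, adjusted p = 0.0220) passed it, and LIFR (-0.26, adjusted p = 0.0819) did not. Over all genes, 1796 differed upward and 1175 downward as deposited, 1238 and 1542 after quantile normalization, and 628 and 739 after the GC trend was removed. The count of all genes past the threshold, 2971, was 1811 without BEAS-2B control replicate 1 and 4532 without BEAS-2B 10 Gy replicate 3.

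Other genes of the pathway were described from lists. Other ligands of the family were low: OSM, the ligand of OSMR, stayed at or below 0.69 FPKM, and IL27 at or below 0.08 FPKM in every library. In A549 cells EBI3, a subunit of IL27, rose from 3.60, 3.35 and 2.63 FPKM to 8.71, 4.92 and 7.33 FPKM (log2 fold change 0.91, SE 0.149, adjusted p = 0.000320). Of the other receptor chains in A549 cells, IL27RA rose (0.21) and IL31RA fell (-0.25), while IL11RA, the specific chain for IL11, was between 3.44 and 4.44 FPKM in all A549 libraries. In H446 cells IL11RA fell (-0.32, SE 0.0958, adjusted p = 0.0247). Genes of these lists that are outside the naming rule were picked after their values were seen.

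JAK1, the most abundant of the JAK kinases, had a mean over 6 libraries of 92.3 FPKM in A549, 48.2 FPKM in H446 and 32.9 FPKM in BEAS-2B cells. It rose in H446 cells, from 44.1, 44.7 and 43.8 FPKM to 51.8, 50.9 and 53.6 FPKM (log2 fold change 0.23, SE 0.0357, adjusted p = 0.000811), where TYK2 fell (-0.24), and in A549 cells JAK2 rose (0.23). STAT2, another gene of the STAT family, rose in A549 cells from 14.4, 14.5 and 14.6 FPKM to 19.7, 19.1 and 20.6 FPKM (0.43, SE 0.0462, adjusted p = 1.32e-05). Of the inhibitors and phosphatases, PTPN6 rose (0.37) and SOCS2 (-0.51) and PTPN2 (-0.27) fell in A549 cells, and PIAS1 rose in H446 cells (0.18). In A549 cells 2 of 8 tested were higher and 2 lower, where 25.3% and 26.4% of all genes tested were. CISH, the other gene higher, reached 1 FPKM in all 3 irradiated libraries and in 2 of 3 controls. ADAM10, a protease that can shed IL6R from the cell surface, rose in H446 cells from 53.3, 52.8 and 53.7 FPKM to 61.4, 65.5 and 66.7 FPKM (0.27, SE 0.0391, adjusted p = 0.000544) and in A549 cells by 0.29 (adjusted p = 4.99e-05), where ADAM17, the other such protease, fell (-0.14).

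The list of 17 genes known as STAT3 targets moved in both directions. In A549 cells 5 rose and 9 fell, where 25.3% of all genes tested were higher and 26.4% lower, with a median log2 fold change of -0.17 against -0.0040 over all genes tested. The largest change was that of MYC, a growth regulator, from 47.1, 47.7 and 44.6 FPKM to 19.0, 19.1 and 20.7 FPKM (-1.21, SE 0.0472, adjusted p = 2.67e-09). JUNB went from a mean of 92.9 FPKM to 46.3 FPKM in A549 cells, and IRF1 from 36.7 FPKM to 25.4 FPKM. For both genes all irradiated A549 libraries were below all A549 controls. In H446 cells 3 rose and 3 fell (median -0.07 against -0.03 over all genes), where 14.8% of all genes tested were higher and 23.6% lower. There MCL1, a survival factor of the BCL2 family, rose from 134, 135 and 133 FPKM to 165, 159 and 167 FPKM (0.29, SE 0.0337, adjusted p = 0.000157), and IL4R fell from 14.0, 14.1 and 14.65 FPKM to 11.3, 10.5 and 11.75 FPKM (-0.33, SE 0.0528, adjusted p = 0.00106). BCL3, a co-regulator of NF-kB, fell (-0.25, adjusted p = 0.00428) and FOS, a subunit of AP-1, rose (0.24, adjusted p = 0.00960) in the same cells. MCL1 and BCL3 moved the other way in A549 cells. MCL1 went there from 176, 181 and 182 FPKM to 120, 114 and 127 FPKM. BCL3 went from 29.7, 26.0 and 27.1 FPKM to 36.1, 32.4 and 34.3 FPKM. HIF1A was the most abundant target in A549 (mean over 6 libraries 323 FPKM) and BEAS-2B cells (199 FPKM), and TIMP1 in H446 cells (352 FPKM).

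In BEAS-2B cells the median of the 17 targets was 0.17 against 0.0019 over all genes, with 0 past the threshold. JUNB, a subunit of AP-1, was at 22.25, 25.2 and 24.3 FPKM in the controls and at 32.6, 30.8 and 28.6 FPKM after irradiation (log2 fold change 0.35, SE 0.0810, adjusted p = 0.241). IRF1, a transcription factor of the interferon response, was at 23.2, 27.15 and 22.8 FPKM in the controls and at 36.45, 27.9 and 37.1 FPKM after irradiation (0.45, SE 0.114, adjusted p = 0.249). Unlike in A549 cells, where both genes were lower after irradiation, both were above all BEAS-2B controls in all 3 irradiated libraries. Replicate 2 of IRF1 was only slightly above them. Without 10 Gy replicate 2, 3 of the 17 passed the threshold, all higher, where 1.92% of all genes tested were higher: FOS (0.93, adjusted p = 0.00229), IRF1 (0.58, adjusted p = 0.00857) and CCND1 (0.57, adjusted p = 0.0178). BBC3, GDF15 and CDKN1A, of the p53 list, had log2 fold changes of 0.79, 2.42 and 1.56 with adjusted p = 0.241, 0.2495 and 0.2495. The median of the 8 p53 targets was 1.23, with 0 past the threshold. Without 10 Gy replicate 2 the median was 1.87, and 8 of 8 were higher, where 1.92% of all genes tested were. That library had been set apart by these same genes.

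Many acute phase protein genes are induced by IL6 in the liver. Of 15 listed, 8 were tested in A549 cells, and 7 of these were higher and 0 lower, where 25.3% of all genes tested were higher. ORM1, among the 7, reached 1 FPKM in all 3 irradiated libraries and in 1 of 3 controls, so that it met the filter through the irradiated libraries. The median log2 fold change of the 8 was 0.65 against -0.0040 over all genes. SAA1 was at 2.60, 3.59 and 2.02 FPKM in the controls and at 9.74, 9.98 and 10.7 FPKM after irradiation (1.60, SE 0.119, adjusted p = 5.86e-07), and SAA2 at 1.73, 1.81 and 1.23 FPKM and at 5.84, 5.29 and 5.99 FPKM (1.38, SE 0.0932, adjusted p = 2.63e-07). Both are near-identical copies, and reads that fit both may have been divided between them. C3, the most abundant of the list in A549 cells, rose from 55.5, 53.45 and 56.3 FPKM to 103, 102 and 107 FPKM (0.91, SE 0.0378, adjusted p = 4.44e-09). In H446 cells C3 was higher (0.18, adjusted p = 0.00604). In BEAS-2B cells SAA1 was far more abundant, between 263 and 307 FPKM in the controls and between 249 and 333 FPKM after irradiation, and 0 of 5 tested passed the threshold.

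Of the cytokines and NF-kB genes that induce IL6, 3 of 5 tested fell in A549 cells and 1 rose, where 26.4% of all genes tested were lower and 25.3% higher. IL1A was at 11.1, 11.6 and 11.3 FPKM in the controls and at 4.58, 5.54 and 6.12 FPKM after irradiation (log2 fold change -0.95, SE 0.0798, adjusted p = 1.62e-06), NFKB1 and RELA fell (-0.50 and -0.39), and NFKBIA, the inhibitor of NF-kB and the most abundant of the list, rose (0.23). In H446 cells 2 of 5 fell, IL1B (-0.26, adjusted p = 0.00251) and NFKB1 (-0.13, adjusted p = 0.0374), where 23.6% of all genes tested were lower. In BEAS-2B cells 0 of 5 passed the threshold, and without 10 Gy replicate 2 IL1B (0.89, adjusted p = 0.000606) and IL1A (0.68, adjusted p = 0.0477) were higher. IL1B was there at 29.8, 16.05 and 33.4 FPKM after irradiation against 15.1, 17.5 and 17.2 FPKM in the controls, with replicate 2 among the controls.

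**Figure D4:**
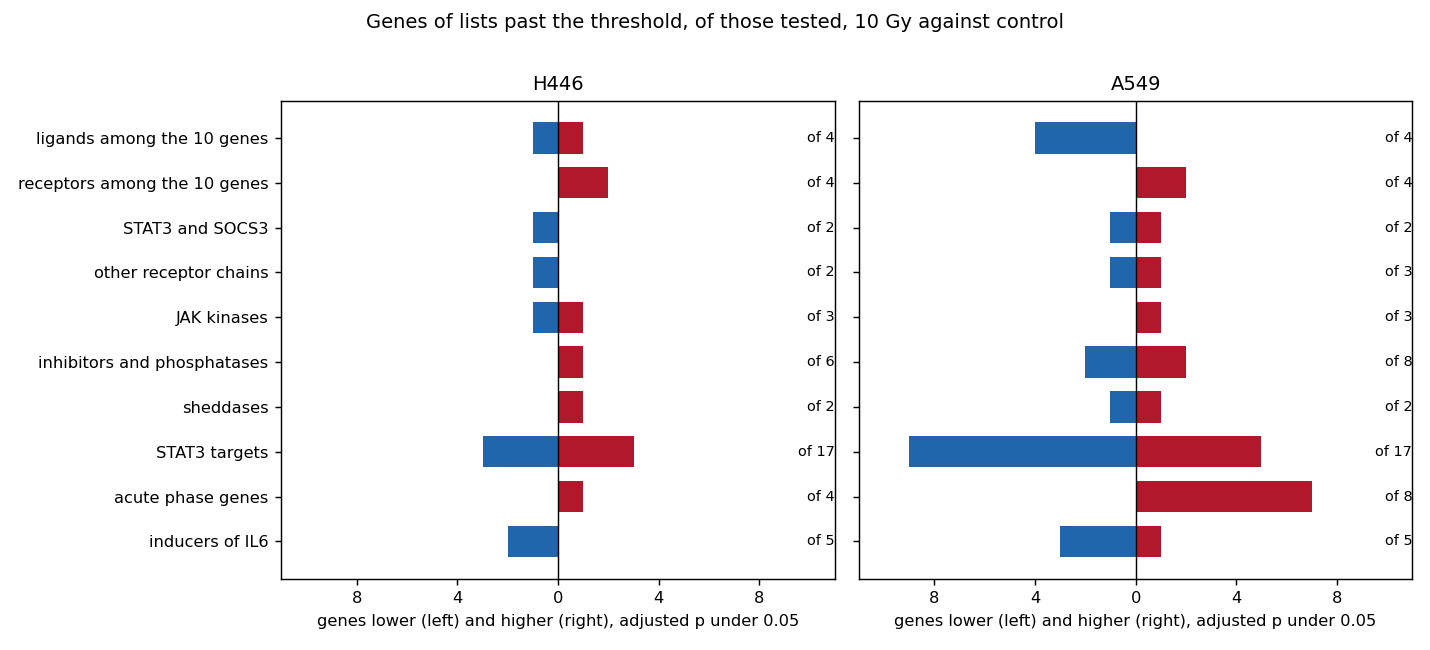
Number of genes of the lists drawn with an adjusted p under 0.05 for 10 Gy against control in H446 (left panel) and A549 cells (right panel), lower to the left and higher to the right of 0, with the number tested at the right edge. In A549 cells all 4 ligands are on the lower side and 7 of 8 acute phase genes on the higher side. Of all genes tested in these cells, 26.4% were lower and 25.3% higher. ORM1, among the 7, met the filter through the irradiated libraries. BEAS-2B cells are not drawn because 0 genes passed the threshold.

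The patterns most like those of 4 members were sought over the 18 libraries after the mean of each line was taken off, among 10415 genes with a mean of at least 5 FPKM in at least 1 line. The libraries share lines and treatment, and the correlations are a description. For IL6, the highest Pearson correlations were those of NAV2 (0.914), CD55 (0.886) and AKAP2 (0.882), and for LIF those of IRF1 (0.906), ASB1 (0.896) and AVPI1 (0.896). For STAT3 they were those of RALGDS (0.971), TOB1 (0.967) and RETSAT (0.960), and for SOCS3 those of LEMD2 (0.959), POGK (0.948) and CHRAC1 (0.940).

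Some levels may hold reads of neighbouring genes. In GENCODE 29, exons of IL6, LIF, IL6ST, LIFR and OSMR overlap exons of a gene on the opposite strand, and exons of CLCF1 overlap those of another gene on its own strand. Whether the counting used the strand is not given in the sources used here, so reads of such partners cannot be told apart. Of the leukocyte markers, CD68 was higher in irradiated A549 cells (log2 fold change 0.16), the summed level of the 4 measured leukocyte markers was between 27.3 and 30.5 FPKM in the A549 controls and between 31.2 and 35.1 FPKM after irradiation, and its most abundant gene was CD68, while PTPRC stayed at or below 0.01 FPKM. ITGAM was at 0.75, 0.82 and 0.64 FPKM in the A549 controls and at 1.35, 1.49 and 1.30 FPKM after irradiation, and reached 1 FPKM, the level of the filter, in irradiated libraries only. In A549 cells the neuroendocrine marker ENO2 (0.71), the epithelial CDH1 (0.49) and the alveolar ABCA3 (0.26) were also higher after irradiation. In H446 cells UCHL1 (-0.53), ENO2 (-0.41), KRT18 (-0.20) and KRT19 (-0.32) were lower and the fibroblast gene LUM (0.30) and KRT17 (0.21) higher. Their part in the results was not tested.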

How the data were processed

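Poly(A) RNA-seq of 18 libraries was analysed, with 3 per group as labelled. The authors deposited 1 table of normalized values, which are read here as FPKM; the unit was inferred from the values and is not named in the sources used here. The submitters' processing notes list HISAT2 2.0.4, Bowtie2 2.2.5, RSEM 1.2.12 and the build hg38, without roles. Read numbers were not given; spacing of the values of short genes put the deepest library at 1.18 times the shallowest.

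Of 18475 Entrez identifiers, 18181 were matched to RefSeq names (GRCh38.p14). Within each line, a gene was tested, as all 10 members were, where 3 or more of 6 libraries reached 1 FPKM, with values taken as log2(FPKM + 1), by limma 3.58.1 (lmFit, eBayes with trend) in R 4.3.3, which understates fold changes of low genes. Differences in response and between control lines came from 1 fit of 6 group means, for genes that passed in at least 1 line. Benjamini-Hochberg adjusted p-values were computed over all genes tested, with a threshold of 0.05, and intervals are at 95%. At 3 against 3 libraries no exact permutation test of a single gene was run. The procedure was tested on simulated data.

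The members and lists were chosen with earlier results of these data known. Named genes are the members, and of the lists up to 8 genes per line with the largest absolute change past the threshold (where there were none, the 5 with the smallest unadjusted p) and the gene with the highest mean; other list genes were named after their values were seen. Lists are described by counts and medians. IL31, HAMP, INSM1, NEUROD1 and CD3E were not analysed here. The alternatives were a pseudocount of 0.1, no filter, a filter of 1 FPKM reached in every library, quantile normalization, removal of each library's loess trend (span 0.5) on GC content (17850 genes), the replicate block, all 18 libraries in 1 fit for the line comparisons, and each library left out in turn. No correlation above 0.9987 and no more than 2.97% equal values were found between replicates.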

Additional observations from a re-analysis of the deposited data

Results flagged for a closer look

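The response to 10 Gy differed between lines in 18 tests of a member, 6 of 10 members in each of 3 comparisons, by the limma test of the difference itself. Of all genes tested, 22.7% differed for BEAS-2B minus H446, 30.6% for BEAS-2B minus A549 and 34.6% for A549 minus H446. All 3 pairwise differences share libraries. Between BEAS-2B and H446 cells, the difference on the log2(FPKM + 1) scale (BEAS-2B minus H446) was 0.66 for IL11, 0.50 for LIF, 0.33 for CLCF1, 0.26 for STAT3, -0.44 for IL6ST and -0.36 for LIFR, with adjusted p from 0.00917 to 0.0375, and 1 of these 6 passed the threshold after the GC trend was removed. Between BEAS-2B and A549 cells (BEAS-2B minus A549), it was 2.23 for IL11, 0.81 for LIF, 0.69 for CLCF1, 0.54 for IL6, 0.59 for SOCS3 and -0.28 for IL6R, with adjusted p from 8.80e-07 to 0.0333. Between the cancer lines (A549 minus H446), it was -1.57 for IL11, -0.74 for IL6, -0.36 for CLCF1, -0.35 for SOCS3, 0.39 for STAT3 and 0.29 for IL6R, with adjusted p from 3.30e-05 to 0.0252. IL6 had opposite signs in the cancer lines, at -0.45 in A549 and 0.28 in H446 cells, each past the threshold.

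BEAS-2B 10 Gy replicate 2 differed from the other irradiated libraries of its line in IL11 (0.04 against 0.90 and 0.94 above the control mean on the log2 scale) and LIF (-0.03 against 0.40 and 0.49). The same library had a median of 0.12 over the 8 p53 target genes, against 1.53 and 2.18. Groups of 3 were too small for a formal rule on outlying libraries, and the cause was not tested.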

How the results depend on the processing

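Of the 56 results for a member past the threshold, 0 turned in direction under any alternative and 40 kept their call under all of them. Of 538 values for a member under alternatives that left no library out, 490 kept direction and side of the threshold, 30 lost the call, 7 gained it and 11 reversed; of 1260 values with 1 library left out, these were 1159, 70, 9 and 22. The causes were not tested. A block for replicate number was not fitted to contrasts between control lines. The FPKM values carry no read counts, so the precision of low genes such as IL6R, and of LIF and IL11 in H446 cells, is unknown.

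Genes past the threshold in BEAS-2B cells (0) were 1 with no filter, 842 with all 18 libraries in 1 fit and 0 to 233 with 1 library left out; members past it (0) were 2 in that fit and 0 to 3. With the replicate block, 439 genes and 2 members, IL11 (adjusted p = 0.00840) and STAT3 (adjusted p = 0.0426), passed there, and LIFR in A549 cells (adjusted p = 0.0507) and STAT3 for BEAS-2B minus H446 (adjusted p = 0.0640) lost their calls; the deviations of same-numbered libraries correlated at -0.125, 0.324 and 0.311 in BEAS-2B, 0.19, 0.01 and 0.082 in H446 and 0.01, -0.055 and -0.099 in A549 cells. For BEAS-2B, 2 of the 3 were positive, but differently numbered pairs reached 0.379 and -0.498, and the labels name no pairs, so the fit without the block was kept. In H446 cells, members past the threshold (5) were 3 after the GC trend was removed and 3 to 5 with 1 library left out. For BEAS-2B minus H446, genes past it (2971) were 1367 after the GC trend was removed and 1811 to 4532 with 1 library left out, and members (6) were 2 with no filter, 1 after the GC trend was removed and 1 to 6. For A549 minus H446, members (6) were 3 to 7 with 1 library left out.

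These log2 differences changed sign, none of them past the threshold. After the GC trend was removed, in BEAS-2B cells CLCF1 was -0.0033, LIFR 0.0715 and OSMR 0.0109, in H446 cells IL11 was 0.0678 and OSMR -0.0032, and for BEAS-2B minus H446 IL6R was -0.0916, OSMR 0.0113 and SOCS3 -0.00010. After quantile normalization, IL11 in H446 cells was 0.0098, IL6R for BEAS-2B minus H446 -0.0511 and IL6R for control H446 against BEAS-2B 0.0136. With 1 library left out, LIFR was -0.131 to 0.0407, OSMR -0.0762 to 0.0442 and SOCS3 -0.0851 to 0.0288 in BEAS-2B cells; IL11 -0.0909 to 0.0289, IL6R -0.00065 to 0.0952 and OSMR -0.0210 to 0.0242 in H446 cells; IL6ST -0.0194 to 0.0707 in A549 cells; IL6R -0.0448 to 0.0511 and OSMR -0.0841 to 0.0363 for BEAS-2B minus H446; and OSMR -0.0030 to 0.117 for control H446 against BEAS-2B.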
